A study of Mus musculus with 8 samples.

Results

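The 8 genes Msln, Wt1, Upk3b, Upk1b, Lrrn4, Gpm6a, Cpe and Muc16 mark the mesothelium, the outer covering of the lung. In E18.5 mouse lungs that misexpressed MIA, the mesothelin gene Msln fell to 0.323 of its control signal, while none of the 7 other genes passed the same test. The genes were chosen by name, and every probe set annotated to exactly 1 of these symbols was used. This gave 14 of 45037 probe sets and 8 of 18193 genes on the E18.5 array, and 5 of 12422 probe sets and 4 of 8251 genes on the E11.5 array.

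The study measured total RNA of FVB/N mouse embryos on 8 Affymetrix 1-colour arrays. At E18.5, 3 arrays held double transgenic lung, described in the labels as SP-C/MIA overexpressors and called bitransgenic in the study's design. The 3 control arrays held single transgenic E18.5 lung, and the labels do not say which transgene it carried. Below, each array is called a lung, and no claim is made that each was a separate embryo. SP-C is surfactant protein C, a product of distal lung epithelium whose promoter is widely used to drive transgenes there, and not of mesothelium. A further pair of arrays of another type held lung and trachea at E11.5, with 1 array each and no transgene named. The design addresses the effect of MIA, a small protein secreted by melanoma and cartilage cells, on the whole lung, and the genes that differ between early lung and trachea. Mia itself read 31399, 42666 and 41546 in the bitransgenic lungs, against 1071, 1070.5 and 734 in the controls.

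The mesothelium is the sheet of flattened cells that covers the lung and lines the body cavities. In the embryo it is a source of signals to the lung mesenchyme and of cells that move into the lung. Mesothelin is a surface glycoprotein held in the membrane by a lipid anchor, and it binds Muc16, the membrane mucin that carries the CA125 antigen. Wt1 is a zinc finger transcription factor of mesothelium, kidney and gonad. Upk3b and Upk1b belong to the uroplakins, membrane proteins best known from the bladder lining, and Lrrn4 encodes a leucine-rich repeat membrane protein. Gpm6a, a membrane glycoprotein, and Cpe, the carboxypeptidase that trims prohormones, are also strongly made by neurons and endocrine cells, so they mark mesothelium less strictly.

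RefSeq promoter windows (GRCm38.p6, 250 bases before to 50 after a start) were available for 4 of the 8 genes, Upk3b, Lrrn4, Gpm6a and Muc16, with 5 windows in all. They were searched on both strands for GGAATG, the MCAT element of TEAD factors that has been described in the promoter of human MSLN in cancer cells. Also searched were the TATA box as TATAAA, the Sp1-type GC box as GGGCGG, the CCAAT box, and the site type shared by Wt1 and Egr factors as GCGTGGGNG. The 3 windows that held GGAATG are shown because of that match, and no window was used for Msln. They are Upk3b at chr5:136038246-136038545 on the plus strand, Lrrn4 at chr2:132880813-132881112 on the minus strand, and the upstream start of Gpm6a at chr8:54779184-54779483 on the plus strand. Each is written 5′ to 3′ along the gene, with capitals for any of the 5 motifs.
Upk3b: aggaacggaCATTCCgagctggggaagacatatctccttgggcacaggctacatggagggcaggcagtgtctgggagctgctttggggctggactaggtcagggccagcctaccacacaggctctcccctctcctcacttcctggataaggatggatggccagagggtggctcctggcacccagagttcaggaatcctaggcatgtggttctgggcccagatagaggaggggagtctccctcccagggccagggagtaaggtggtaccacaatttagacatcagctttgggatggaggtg
Lrrn4: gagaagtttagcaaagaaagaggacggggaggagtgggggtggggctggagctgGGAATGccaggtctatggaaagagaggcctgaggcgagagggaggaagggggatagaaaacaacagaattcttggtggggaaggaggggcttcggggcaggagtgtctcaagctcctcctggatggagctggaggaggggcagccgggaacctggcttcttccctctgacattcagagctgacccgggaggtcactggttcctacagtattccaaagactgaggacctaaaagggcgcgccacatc
Gpm6a: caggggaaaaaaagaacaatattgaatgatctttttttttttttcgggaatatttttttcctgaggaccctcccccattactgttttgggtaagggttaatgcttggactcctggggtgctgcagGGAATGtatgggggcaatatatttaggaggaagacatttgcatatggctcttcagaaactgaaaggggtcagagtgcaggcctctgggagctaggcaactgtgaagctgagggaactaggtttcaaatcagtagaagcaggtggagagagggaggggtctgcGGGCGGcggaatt
In the Upk3b window the capitals are GGAATG on the opposite strand, and the first capital as written lies at -241 from the start. Lrrn4 held GGAATG at -196 and Gpm6a at -125, both on the gene's strand, and Gpm6a also held a GC box at 38 bases into the transcript. The MCAT element was present in 14.7% of all 32851 windows of the same length, the GC box in 35.7%, the CCAAT box in 37.4%, the TATA box in 13.6% and the Wt1 and Egr type motif in 1.9%. The Muc16 window held none of the 5 motifs, and the downstream Gpm6a window held only the TATA box. These matches describe letters and not binding, and a window without a match shows only that the letters are not in it.

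All 6 E18.5 arrays had been scaled by the authors to the same trimmed mean, and their median signals were between 415 and 464. The Actb 3' to 5' signal ratio, a sign of RNA quality, was 1.65, 1.51 and 1.61 in bitransgenic arrays 1 to 3, against 1.5, 1.47 and 1.28 in controls 1 to 3. It was thus above every control in every bitransgenic array, but only narrowly for bitransgenic 2 (1.506) against control 1 (1.501). Its part in the results was tested only as a covariate. The same ratio for Gapdh was 0.9963, 0.9209 and 1.079 in bitransgenic arrays, against 0.9206, 0.9210 and 0.7814 in controls, and its groups overlapped. Bitransgenic 3 and control 3 correlated least with the rest across probe sets (mean r 0.967 and 0.966). Nothing in the labels says that the arrays of a group came from separate litters. The p-values set the group difference against the spread between these arrays, part of which may be technical. Where a gene had several probe sets, the one of strongest mean signal stood for it. A pseudocount of 86.4 was added to each signal before taking log2. Genes whose mean lay below the 40th percentile were left out, and all 8 genes passed. The test was limma, a linear model that pools the variance across genes, with a threshold of 0.05 on the adjusted p.

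Msln was the 1 gene of the 8 that passed the test, where 0.673% of all genes tested passed. Its probe set 1460238_at read 5008, 6956 and 4681 in the bitransgenic lungs, against 13539, 15680.1 and 22387 in the controls. The highest bitransgenic lung thus lay well below the lowest control, and the groups did not overlap. The mean was 5548 ± 1230 (SD, n = 3) in bitransgenic lungs and 17202 ± 4616 (SD, n = 3) in controls, a ratio of 0.323. On the scale of log2(signal + pseudocount) the change was -1.61 with an SE of 0.21 and a 95% interval from -2.08 to -1.14 (limma adjusted p = 0.00904 over 12625 genes). Msln ranked 21 among the 55 genes that fell, by the size of the log2 change. In bulk lung RNA, fewer cells that make Msln and less Msln RNA per cell cannot be told apart. Which cells of the lung made the Msln RNA was not tested.

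The call on Msln depended on the arrays included. It did not pass without control 2 (log2 change -1.66, limma adjusted p = 0.0535), without bitransgenic 3 (log2 change -1.50, limma adjusted p = 0.0696) or with the Actb ratio as a covariate (log2 change -1.03, limma adjusted p = 0.0893). Without both arrays of lowest correlation the log2 change was -1.29 (limma adjusted p = 0.00705). The direction was the same in all 18 alternatives.

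**Figure D1:**
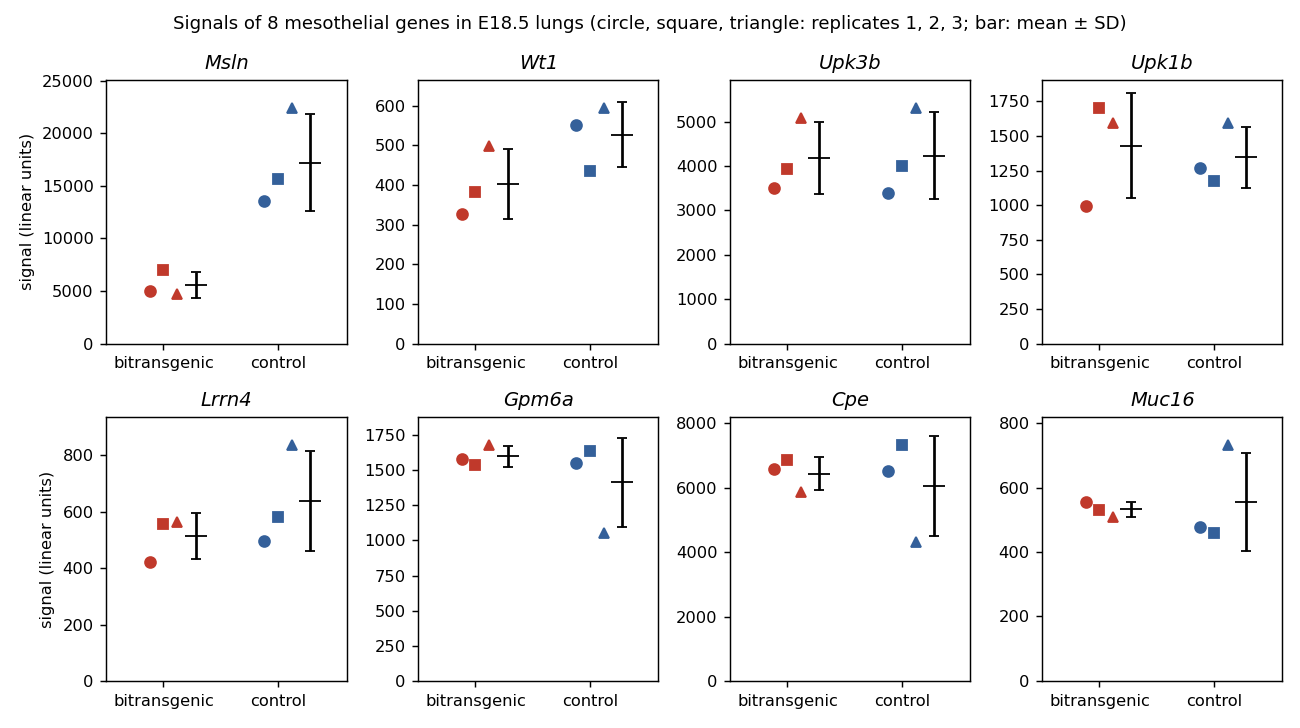
Signals on a linear axis from 0 for the 8 genes in 3 bitransgenic lungs (red, left) and 3 control lungs (blue, right), with the mean and SD beside the points. Only for Msln do the bitransgenic points, 4681 to 6956, all lie below the controls, 13539 to 22387.

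Muc16, the binding partner of mesothelin, did not pass the test. It read 555, 531 and 509.8 in bitransgenic lungs, against 476, 460.4 and 731 in controls. The single high control, number 3, placed the groups in overlap. The log2 change was -0.03 with a 95% interval from -0.49 to 0.43 (limma adjusted p = 0.986), and it was 0.16 without control 3.

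Wt1, the transcription factor of the list, had the lowest log2 change after Msln but did not pass. Its signals were 327, 382 and 499 in bitransgenic lungs, against 549.9, 436 and 594 in controls. Bitransgenic 3 lay above control 2, so the groups overlapped. The log2 change was -0.33 with a 95% interval from -0.81 to 0.14 (limma adjusted p = 0.703).

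The uroplakins showed no change that passed at any probe set. Upk3b had signals of 3508, 3941 and 5082 in bitransgenic lungs, against 3391, 3994 and 5309.8 in controls at probe set 1454881_s_at. Lung by lung, the groups covered almost the same range. Its log2 change was -0.01 with a 95% interval from -0.45 to 0.43 (limma adjusted p = 0.993). A second Upk3b probe set, 1434237_at, gave -0.09 with an interval from -0.57 to 0.38 in the fit of all probe sets.

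Upk1b was measured by 4 probe sets with log2 changes of -0.08 (1435831_at), 0.06 (1439760_x_at), -0.09 (1455464_x_at) and -0.23 (1457065_at), none past the threshold. At 1439760_x_at it read 995, 1702 and 1595 in bitransgenic lungs, against 1268, 1176 and 1596 in controls. Both the lowest and the highest of these 6 values came from bitransgenic lungs. Probe sets ending in _x_at may also bind related transcripts, and probe sets of 1 gene share its RNA and are not replicates.

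Lrrn4 read 421, 558 and 565 in bitransgenic lungs, against 498, 579.9 and 835 in controls. The groups overlapped, with control 3 highest and bitransgenic 1 lowest. The log2 change was -0.25 with a 95% interval from -0.75 to 0.24 (limma adjusted p = 0.796).

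Gpm6a and Cpe, the genes shared with neural and endocrine cells, also did not pass. Gpm6a at probe set 1456741_s_at read 1583, 1535 and 1678 in bitransgenic lungs, against 1549, 1639.6 and 1053 in controls. Its log2 change was 0.19 with a 95% interval from -0.21 to 0.59 (limma adjusted p = 0.812). A second Gpm6a probe set, 1426442_at, gave 0.13 with an interval from -0.34 to 0.59 in the fit of all probe sets. Cpe at 1415949_at read 6597, 6866 and 5865 in bitransgenic lungs, against 6509, 7318 and 4316 in controls. Its log2 change was 0.12 with a 95% interval from -0.31 to 0.55 (limma adjusted p = 0.895). In both genes control 3 was the lowest of the 6 arrays.

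A second Cpe probe set behaved differently. At 1439437_x_at, whose mean was below the filter, the signals were 219, 146 and 214 in bitransgenic lungs, against 86.1, 98.3 and 67.8 in controls. The groups did not overlap, with every bitransgenic lung higher. Such a separation, with bitransgenic above, was seen in 7.65% of all 45037 probe sets. The log2 change of 0.70, with the control signals near the pseudocount, did not pass in the fit of all probe sets (limma adjusted p = 0.483). The groups of Cpe thus overlapped at 1 of its probe sets and not at the other.

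**Figure D2:**
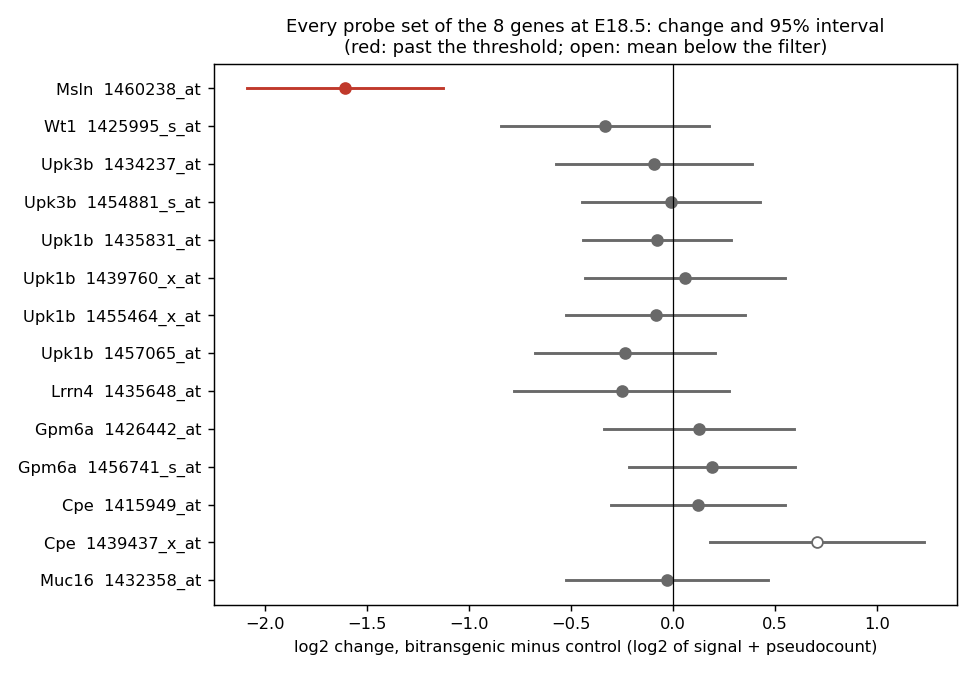
Log2 change (bitransgenic minus control) and its 95% interval for each of the 14 probe sets, from a fit of all 45037 probe sets. The Msln interval, from -2.08 to -1.13, lies apart from 0. The open point is the Cpe probe set 1439437_x_at at 0.70, whose interval from 0.18 to 1.23 also lies apart from 0.

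Of the 8 genes 1 fell, none rose and 7 did not pass, where 0.673% of all 12625 genes were called in either direction, 0.436% lower and 0.238% higher. At the probe sets that stood for the genes, Msln was also the 1 member with an unadjusted limma p under 0.05. The second Cpe probe set, 1439437_x_at, had an unadjusted limma p of 0.0139 in the fit of all probe sets. With the mean of its probe sets, Cpe had a log2 change of 0.41 (limma unadjusted p = 0.0231, adjusted p = 0.346). The median log2 change of the 8 was -0.02, beside 0.01 for all genes tested. Among the 8, Msln alone had bitransgenic lungs entirely below the controls, and none had them entirely above. Over all genes tested these shares were 7.56% below and 8.86% above, or 16.4% together. The summed signal of the 7 genes besides Msln was 13987 to 15793 in bitransgenic lungs, against 14241 to 15605 in controls. The genes differed in signal level. By mean percentile of the array Msln was at 94.3, Cpe at 92.1, Upk3b at 88.2, Gpm6a at 72.8 and Upk1b at 71.3. Lrrn4 at 55.0, Muc16 at 54.1 and Wt1 at 51.0 were near the middle of the array.

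Set against each other gene within the same array, Msln was lower in the bitransgenic lungs in all 7 comparisons, and in none did the groups overlap. The same separation was found for 98.5% of all 12624 other genes set against Msln, so it follows from the fall of Msln and is not particular to these 7. The difference between log2 Msln and log2 of the other gene changed by -1.60 for Upk3b, -1.35 for Lrrn4, -1.58 for Muc16 and -1.27 for Wt1. It changed by -1.67 for Upk1b, -1.73 for Cpe and -1.80 for Gpm6a. Each gave p = 0.1 in the exact two-sided permutation test, and p = 0.1 after adjustment over the 7. That is the smallest p that 10 splits of 3 against 3 arrays allow, so this test could not pass the threshold. All 7 comparisons share the Msln values.

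In the controls the difference from Msln was nearly constant for some of these genes. Log2 Msln minus log2 Upk3b was 0.50, 0.81 and -0.12 in bitransgenic lungs, against 1.97, 1.95 and 2.06 in controls. For Lrrn4 the values were 3.33, 3.45 and 2.87 in bitransgenic lungs, against 4.54, 4.56 and 4.61 in controls. The SD over arrays was 0.47 and 0.31 in bitransgenic lungs, against 0.06 and 0.03 in controls. These were the smallest control SDs of the 7 and were picked for it. For Gpm6a and Cpe the SDs were 0.36 and 0.22 in bitransgenic lungs, against 0.68 and 0.74 in controls. Control 3 was the highest control for 6 of the 8 genes, Msln, Wt1, Upk3b, Upk1b, Lrrn4 and Muc16, and the lowest for Gpm6a and Cpe. How often control 3 was highest over all genes was not counted, so nothing about these genes is read from it. Of the controls it was the array that correlated least with the rest. Among bitransgenic lungs Upk3b, Lrrn4, Wt1 and Gpm6a were highest in number 3, where Msln was lowest. The values of a difference carry probe effects, so only its change between arrays is meaningful.

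**Figure D3:**
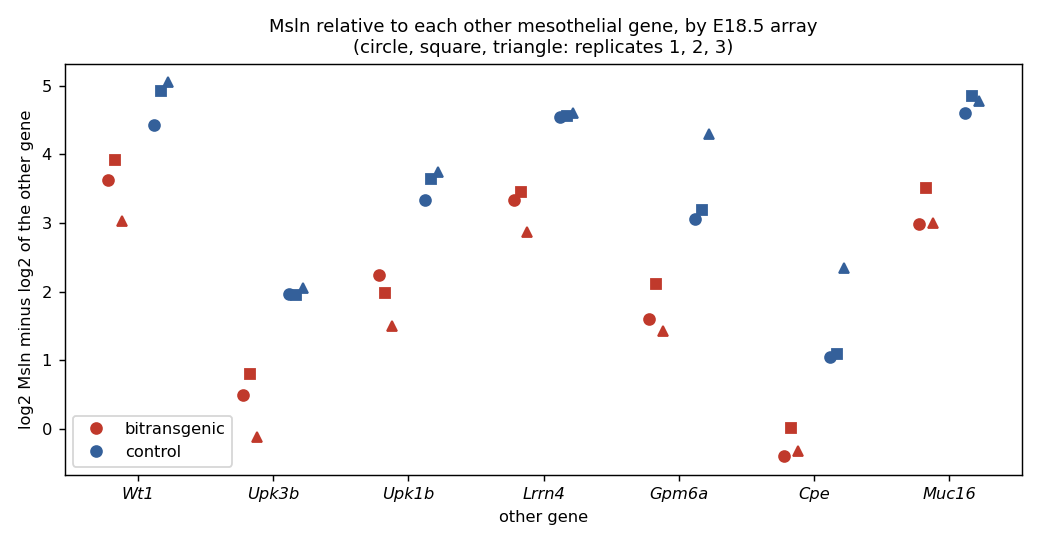
Log2 Msln minus log2 of each of the 7 other genes, by array, with bitransgenic lungs in red on the left and controls in blue on the right. Every bitransgenic point lies below every control point, and the control points for Upk3b and Lrrn4 nearly coincide, between 1.95 and 2.06 and between 4.54 and 4.61.

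A wider list of genes made by mesothelial cells, many of which lung epithelium or mesenchyme also makes, held no call. Of its 29 genes on the array, 24 were kept by the filter and so measured. None of these 24 passed in either direction, where 0.673% of all genes tested passed, and the median log2 change was -0.07. For 5 of the 24 the bitransgenic lungs lay entirely below the controls and for 5 entirely above, where over all genes tested 7.56% lay below and 8.86% above. Igfbp6, which encodes a binding protein of insulin-like growth factors, was nearest to a call with 2977, 3949 and 3103 in bitransgenic lungs, against 5216, 6632 and 9023 in controls. Its log2 change was -1.01 (SE 0.20, limma adjusted p = 0.0733). For the surface sialomucin gene Podxl the log2 change was -0.54 (limma adjusted p = 0.125), for the keratin gene Krt7 -0.50 (limma adjusted p = 0.233) and for Pdpn, a membrane glycoprotein also of alveolar type I cells, -0.36 (limma adjusted p = 0.283).

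Myrf, Bnc1, Aldh1a2, Nkain4 and Calb2 of this list, named after their values were seen, had log2 changes on both sides of 0, and none passed. The transcription factor gene Myrf read 1948, 1614 and 584 in bitransgenic lungs, against 4065, 1860.4 and 2091 in controls. Its groups overlapped, and its log2 change was -0.97 (limma adjusted p = 0.484). Bnc1, a zinc finger gene, had -0.10 (limma adjusted p = 0.923), and Aldh1a2, a retinoic acid synthesis enzyme of embryonic mesothelium, -0.03 (limma adjusted p = 0.971). Nkain4 had 0.19 (limma adjusted p = 0.761). Calb2, which encodes calretinin, read 516, 449 and 628 in bitransgenic lungs, against 431, 137 and 250.4 in controls. All bitransgenic values were above the controls, but the log2 change of 0.86 did not pass (limma adjusted p = 0.383).

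Gene families of the members gave no further call, and a list of Wt1 partners and described targets gave 1. Over all genes tested 0.673% were called and 0.436% were called lower. None of the 5 uroplakin genes, of 5 measured membrane mucins, or of 7 measured carboxypeptidase and prohormone processing genes passed, with medians of -0.01, 0.14 and 0.13. Among 11 measured partners and described targets of Wt1, 1 fell, Amhr2, the receptor of anti-Müllerian hormone. Amhr2 read 748, 841 and 696 in bitransgenic lungs, against 1598, 1545 and 1323 in controls, with a log2 change of -0.89 (SE 0.15, limma adjusted p = 0.0376). Its probe set is also of the _x_at kind. None of 3 measured Lrrn genes or 2 measured genes of the Gpm6a family passed.

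Markers of other cell types moved in the same lungs, where over all genes tested 0.436% fell and 0.238% rose. In the alveolar type II list 6 of 14 genes fell, 0 rose and the median was -0.995, with a summed signal of 192250 to 237592 in bitransgenic lungs, against 413292 to 469159 in controls. Among 12 alveolar type I genes 4 fell and 0 rose, with a median of -0.44 and sums of 233165 to 264936 in bitransgenic lungs, against 315965 to 337703 in controls. Of 9 endothelial genes 1 fell, Car4, with a median of -0.59, and the sum was 51355 to 58966 in bitransgenic lungs, against 70504 to 96772 in controls. Lists of 9 smooth muscle and 9 mesenchymal genes held no call and had medians of 0.09 and -0.14. In the cardiac list 1 of 9 genes rose, Myh7, 0 fell and the median was -0.21. In the club and airway list 2 of 9 rose, Aldh1a7 and Cckar, 0 fell and the median was -0.17. For 3 of these 9 club and airway genes the bitransgenic lungs lay entirely below the controls, and for 2 entirely above. Over all genes tested 7.56% lay below and 8.86% above. Most genes of 3 further lists were below the filter or not on the array. The filter left 3 of 13 neuronal and neuroendocrine genes on the array, 2 of 4 erythroid genes and 3 of 10 genes of liver and diaphragm. None of those left passed the test. No gene of these lists had a signal of 0 on any array. The part of these cell types in the fall of Msln was not tested.

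**Figure D4:**
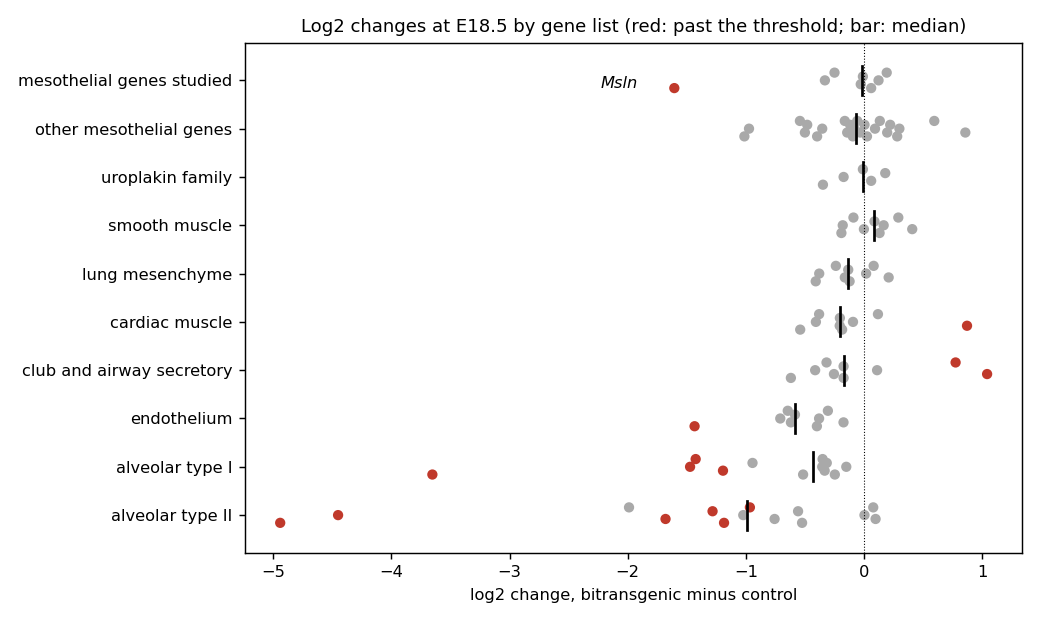
Log2 change (bitransgenic minus control) of each gene, by list, with the list's median as a bar and genes past the threshold in red. Msln, at -1.61, stands apart from the other 7 mesothelial genes, which lie between -0.33 and 0.19.

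The 5 genes whose pattern over the 6 arrays was most like that of Msln were Ackr2, S100a6, Scnn1g, Il33 and Tspan2. Likeness was the mean absolute difference of log2 values after each gene's mean was taken away, and it was 0.19, 0.20, 0.21, 0.21 and 0.21. Ackr2 encodes a scavenging chemokine receptor, S100a6 a calcium-binding protein, Scnn1g a sodium channel subunit, Il33 a cytokine and Tspan2 a tetraspanin. All 5 also fell, with log2 changes of -1.22, -1.24, -1.19, -1.77 and -1.18. Scnn1g was also among the alveolar type I genes counted above as having fallen. By the same measure Wt1 was the nearest of the 7 other members, at 0.64 and rank 1018 of 12624. Upk3b was at 0.80, and Gpm6a was the farthest of the 7 at 0.90. In the wider mesothelial list described above, Igfbp6 was nearest, at 0.30 and rank 25. This is a description over 6 arrays in 2 groups that the group difference dominates.

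At E11.5 the array carried Msln, Wt1, Upk3b and Cpe, with 1 array per tissue and therefore no test. Msln read 48.1 in lung and 41.7 in trachea, both below the pseudocount of 84.3, and no ratio is read from them. Upk3b read 3284 in lung and 2244 in trachea, a log2 ratio of 0.53. Wt1 read 481 in lung and 360.3 in trachea, below the median of the table in both, with a log2 ratio of 0.35. The lung sample thus had the higher Upk3b and Wt1 signals, and neither was over 2-fold apart.

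Cpe ran the other way at E11.5. It read 2109 in lung and 3336 in trachea at 99643_f_at, and 2082 in lung and 3347 in trachea at 99642_i_at. The log2 ratios were -0.64 and -0.66. Upk3b and Cpe were the 2 of the 4 genes with a signal above the median, and 0 of these 2 were over 2-fold apart, where 3.55% of all 5121 genes compared were.

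**Figure D5:**
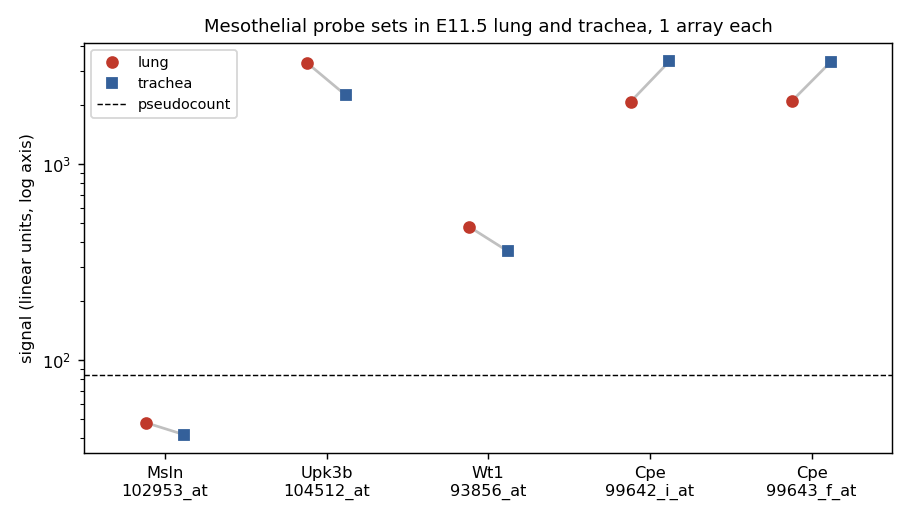
Signals of the 5 probe sets of Msln, Upk3b, Wt1 and Cpe in E11.5 lung (red circles) and trachea (blue squares) on a log axis, 1 array each. Msln lies below the dashed pseudocount of 84.3 in both tissues, Upk3b and Wt1 are higher in lung, and both Cpe probe sets are higher in trachea.

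In the wider mesothelial list 13 genes could be compared at E11.5, of which 3 were over 2-fold higher in lung and 0 in trachea, where 1.21% of all 5121 genes compared were higher in lung and 2.34% in trachea. These were the keratin gene Krt19 (561 in lung and 19.4 in trachea), Clu, which encodes the secreted chaperone clusterin (869 in lung and 377 in trachea), and the membrane linker gene Ezr (3232 in lung and 1567 in trachea). The ratio of Krt19 depends on the pseudocount, since its trachea signal is below it. Krt19, Clu and Ezr are also made by epithelium. Genes of the list with no signal above the table's median were not compared, and large differences among them were not counted. Of these, Rarres2 was higher in trachea (64.8 in lung and 513 in trachea). Fgf9 was higher in lung (259 in lung and 33.2 in trachea). In both genes the lower signal was below the pseudocount. Bnc1 and Aldh1a2, named above for E18.5, had log2 ratios of 0.15 and 0.03. The list's median was 0.22, beside -0.01 for all genes compared. The E11.5 and E18.5 arrays are of different types, so levels were not set against each other across ages.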

How the data were processed

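RNA was measured on 8 arrays. The deposited values are intensity signals, 1 per probe set and array, made with MAS5 per the submitters' processing notes, with the version not given in the sources used here. The values show that the authors scaled the 6 E18.5 arrays to a 2% trimmed mean of 1500.01 and the E11.5 arrays to 1500.9 each, and took no logarithm. Control probe sets (64 at E18.5, 66 at E11.5) were left out here. Genes were named from the array annotation: at E18.5, 34945 of 45037 probe sets had 1 symbol, 932 several and 9160 none. At E11.5, 10833 of 12422 had 1 symbol, 396 several and 1193 none.

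Signals were analysed as log2 after adding a pseudocount at the 20th percentile of each table (86.4 and 84.3). A gene's probe set of highest mean was used, and genes at or above the 40th percentile of probe set means were kept (12625). Groups were compared with limma 3.58.1 (lmFit and eBayes with an intensity trend, R 4.3.3), two-sided, Benjamini-Hochberg adjusted over all genes at 0.05, after testing the script on simulated data. Every probe set was also fitted without a filter. Msln was set against each other gene by an exact permutation test over arrays. E11.5 genes were counted as apart over 2-fold with the higher signal above the table's median. Precision is limited by the few arrays.

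The members, lists and tests were chosen with earlier results of these data known. Named genes were all members, the list genes past the threshold or up to 4 with the smallest p, and the 5 genes most like Msln. Bnc1, Aldh1a2, Nkain4, Calb2 and Myrf were named after their values were seen. Alternatives covered normalization, pseudocount, filter, probe set choice, variance model, array weights, the Actb ratio as a covariate and arrays left out. Promoter sequences are RefSeq's. Figures were drawn with matplotlib 3.10.9.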

Additional observations from a re-analysis of the deposited data

How the results depend on the processing

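The log2 change of Msln was between -1.78 and -1.03 over the 18 alternatives at E18.5 and passed the threshold in 15. It did not pass with the Actb ratio as a covariate (-1.03), nor in 2 of the 6 fits that left out 1 array, whose changes ran from -1.78 to -1.40, and the number of the 8 genes called was then 0, as against 1 elsewhere. Leaving out 1 array gave 22 to 97 called genes in all, against 85 (22 without control 2, 41 without bitransgenic 1, 36 without bitransgenic 3), the Actb covariate 20, array weights 1339 and the loss of both low-correlation arrays 189. Array weights stopped before full convergence. The cause of these differences was not tested.

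Signs of uncalled genes varied, and none of these values passed. With the Actb covariate the log2 changes were 0.32 for Upk3b, 0.19 for Lrrn4, -0.17 for Gpm6a, -0.22 for Cpe and 0.30 for Muc16. Array weights gave -0.035 for Gpm6a, -0.095 for Cpe and 0.17 for Muc16. Without both low-correlation arrays Upk3b had 0.014, Gpm6a -0.030, Cpe -0.036 and Muc16 0.18. The mean of its probe sets gave Upk1b -0.085. Leaving out 1 array gave Upk3b -0.16 to 0.16, Upk1b -0.077 to 0.29, Cpe -0.10 to 0.27 and Muc16 -0.13 to 0.16. Wt1 was negative in all 17 alternatives that measured it. Wt1, Lrrn4 and Muc16 were not measured with a filter at the 60th percentile. At E11.5 no gene of the 4 was over 2-fold apart in any of 6 alternatives.

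No paired analysis was possible because no label pairs an array of one group with an array of the other.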
